A study of Mus musculus with 36 samples.

Results

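The genes described are 34 of central carbon metabolism, taken by name from the 49568 rows of each of 2 raw count tables. They are 18 genes of glycolysis with its glucose and lactate carriers, 10 of the mitochondrial TCA cycle, and the cytosolic enzymes Idh1 and Mdh1. The remaining members are Pdk1, Pdha1 and Hif1a, which act on or around the entry of pyruvate into the cycle, and Acod1, which makes itaconate. All 34 had a row in both tables and passed the filter on low counts in both. RNA-seq counts were obtained from RAW264.7 cells, an established line of mouse macrophages, with 36 libraries in 6 groups of 6. Cells labelled with IFNγ, which drives pro-inflammatory (M1) activation, fell into PBS, 65–79*SE and 65–79*PE groups, and cells labelled with Il-4, which drives M2 activation, into the same 3. Either cytokine was used at 5 ng/ml. The peptides, given at 100 µg/ml for 72 h with the medium refreshed at 48 h, come from the HLA-DRβ chain and carry the shared epitope (SE) linked to rheumatoid arthritis risk or the protective epitope (PE). They differ in a few residues. All groups come from a single cell line, and the labels do not say that replicates were separate cultures, although the study describes biological replicates from separate experiments. If they were not, p-values measure only the spread between these samples, which may be technical.

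Glycolysis converts glucose to pyruvate in the cytosol, and pyruvate is either reduced to lactate by lactate dehydrogenase or carried into mitochondria and oxidised in the TCA cycle. Macrophages activated by bacterial products or IFNγ are known for rapid glycolysis, for a TCA cycle that is interrupted at isocitrate dehydrogenase and succinate dehydrogenase, and for itaconate. Itaconate is drawn from the cycle intermediate cis-aconitate by the enzyme encoded by Acod1 (also known as Irg1) and inhibits succinate dehydrogenase. Macrophages activated by Il-4 are known to keep an intact cycle.

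Promoter sequence is shown for the 4 members called in the same direction in both sets of replicates with 65–79*PE and IFNγ, of which Acod1 and Hk3 were higher and Idh2 and Ldha lower than in PBS. Each line gives bases 250 to 51 upstream of a RefSeq start on GRCm38.p6, 5′ to 3′ on the gene's strand, and leaves out the 50 bases next to the start. Capitals mark the core of the HIF element, searched as ACGTG or GCGTG on both strands. Of the 2 Ldha starts listed, the upstream one is shown. In GENCODE M21 on GRCm38, Acod1 lies at chr14:103046977-103056573 (+ strand), Hk3 at chr13:55005985-55021385 (- strand), Idh2 at chr7:80094846-80115392 (- strand) and Ldha at chr7:46841475-46855627 (+ strand). The windows of Acod1, Hk3 and Idh2 lie outside these spans, while that of Ldha lies inside its gene span.
Acod1, chr14:103046762-103046961 (+ strand): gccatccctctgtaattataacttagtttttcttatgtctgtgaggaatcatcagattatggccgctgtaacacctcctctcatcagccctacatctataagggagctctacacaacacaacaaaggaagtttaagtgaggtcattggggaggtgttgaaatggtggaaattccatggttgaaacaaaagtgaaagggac
Hk3, chr13:55021436-55021635 (- strand): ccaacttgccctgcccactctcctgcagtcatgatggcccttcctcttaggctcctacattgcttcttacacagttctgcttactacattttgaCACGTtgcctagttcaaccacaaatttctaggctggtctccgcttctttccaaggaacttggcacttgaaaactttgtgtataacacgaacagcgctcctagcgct
Idh2, chr7:80115401-80115600 (- strand): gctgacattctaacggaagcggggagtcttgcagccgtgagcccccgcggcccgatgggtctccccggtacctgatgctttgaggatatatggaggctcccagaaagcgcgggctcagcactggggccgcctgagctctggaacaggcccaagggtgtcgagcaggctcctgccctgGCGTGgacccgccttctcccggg
Ldha, chr7:46845554-46845753 (+ strand): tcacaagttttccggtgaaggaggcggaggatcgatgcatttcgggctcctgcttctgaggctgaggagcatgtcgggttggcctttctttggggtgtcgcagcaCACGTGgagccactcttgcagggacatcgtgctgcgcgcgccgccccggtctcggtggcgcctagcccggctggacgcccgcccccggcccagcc
The core was in the windows of Hk3, Idh2 and Ldha and in 31.6% of all 32851 windows of this length, and in 33 of the 48 windows of the 33 members that had one. Neither the interferon gamma element TTCNNNGAA nor the interferon regulatory element (GAAA, any 2 bases, then GAAA) was in any member window, against 5.76% and 2.4% of all windows, again on both strands. A match or its absence describes these letters only.

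Total counts ran from 20.67 to 63.16 M per library of the IFNγ table, and libraries of the Il-4 table held 17.05 to 30.64 M. Levels below are CPM, counts scaled to library size by TMM, and the lowest level of a member in any library was 8.55 CPM. A list of 6 macrophage markers summed to at least 3229 CPM in each library, while the T cell, B cell, fibroblast and epithelial pairs summed to at most 0.504 CPM in the IFNγ table and 1.45 CPM in the Il-4 table, both for the fibroblast pair in PBS. Replicates 1–3 and 4–6 of each group carry names of different schemes in the labels and are shown apart throughout, and n = 3 for each mean ± SD. In the IFNγ table, 5 IFNγ response genes (Irf1, Gbp2, Ciita, H2-Ab1 and Cd274) summed to between 695 and 1061 CPM in 65–79*SE replicates 1–3 and in all 65–79*PE libraries. The same sum was 28.0 to 40.5 CPM in PBS and 30.7 to 35.3 CPM in the libraries labelled 65–79*SE, replicates 4–6, so these 3 libraries go against their label. Replicates 4–6 also held more counts of histone genes (0.236% to 1.55% of all counts, beside at most 0.0187% in replicates 1–3). The small RNA gene Rn7s1 took 5.59% to 7.54% of all counts in replicates 4–6 of the IFNγ table and up to 0.0047% elsewhere, and the part of both in the results was not tested. In the Il-4 table, 6 Il-4 response genes summed to at most 0.446 CPM in PBS and to at least 34.8 CPM in every peptide library. Retnla and Ccl17 were at 0 in all of them, and Chil3 had group means of at most 0.0284 CPM. Most of the sum was Mgl2, at group means of 26.6 to 67.9 CPM with a peptide. The study describes macrophages given the cytokine with or without a peptide, which would include the controls, while its methods also speak of cells without cytokine and the PBS libraries carry neither response. Whether PBS cells received the cytokine is thus not settled, and in contrasts against PBS the peptide and the cytokine cannot be told apart. The 2 tables were counted separately, and no level is tested across them. Fewer cells that express a gene and less RNA per cell cannot be told apart in such bulk libraries.

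Per kilobase of exon, the highest levels in PBS replicates 1–3 of the IFNγ table were those of Aldoa (844 CPM per kb), which splits fructose bisphosphate, and Pkm (833), the last enzyme of glycolysis. The lowest were those of Hif1a (5.84 CPM per kb) and Pfkfb3 (4.04), which sets the level of fructose 2,6-bisphosphate. Several abundant members, among them Gapdh, Aldoa, Ldha, Pgk1, Pgam1 and Eno1, have near-identical pseudogenes, so their levels from uniquely aligned reads are uncertain.

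Acod1 showed the widest range of the members in the IFNγ table. Among replicates 1–3 it was at 14.1, 20.4 and 17.8 CPM in PBS, at 279, 203 and 267 CPM with 65–79*SE and at 49.5, 52.9 and 56.1 CPM with 65–79*PE. The 3 groups did not overlap. Means were 17.4 ± 3.16, 249.7 ± 41.2 and 52.8 ± 3.3 CPM. Against PBS, Acod1 was 14.3-fold higher with 65–79*SE (log2 fold change 3.84, SE 0.18, adjusted p = 1.545e-12) and 3.03-fold higher with 65–79*PE (1.60, SE 0.17, adjusted p = 4.194e-07), by edgeR's quasi-likelihood test with Benjamini-Hochberg adjustment. Between the peptides it was 4.72-fold higher with 65–79*SE (2.24, SE 0.17, adjusted p = 3.946e-08).

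Among replicates 4–6 the order of the peptides was turned. Acod1 was at 17.1, 19.4 and 26.4 CPM in PBS, at 14.7, 8.55 and 9.95 CPM in the libraries labelled 65–79*SE, and at 111, 129 and 122 CPM with 65–79*PE. All 3 libraries labelled 65–79*SE lay below every PBS library, and all 65–79*PE libraries above. The 65–79*PE rise was 5.76-fold (log2 fold change 2.53, SE 0.17, edgeR adjusted p = 8.728e-10). The libraries labelled 65–79*SE, which lack the IFNγ response, were 1.89-fold lower than PBS (-0.92, SE 0.19, adjusted p = 0.009519) and 10.9-fold lower than 65–79*PE (-3.45, SE 0.19, adjusted p = 1.971e-11). Without replicate 6 the first of these was no longer called (-0.66, adjusted p = 0.2067). The plot of 6 members by library shows these levels.

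**Figure D1:**
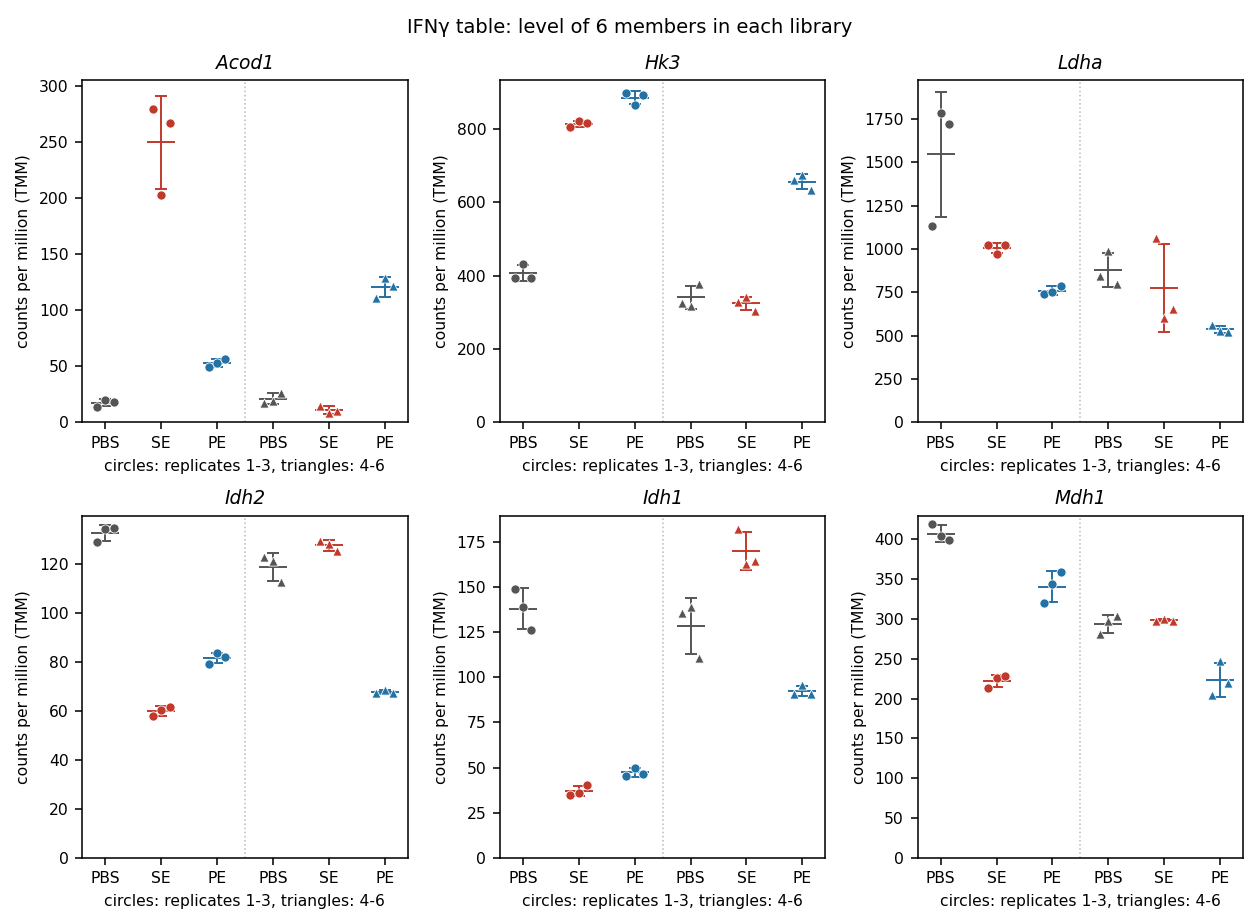
CPM (y axis) of Acod1, Hk3, Ldha, Idh2, Idh1 and Mdh1 in the 18 libraries of the IFNγ table by group (x axis); points are libraries, bars the mean and SD of 3. Acod1 reached 279 CPM with 65–79*SE in replicates 1–3 and stayed at or under 14.7 CPM in the libraries labelled 65–79*SE in replicates 4–6, while Hk3 was above PBS in each 65–79*PE library.

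Glycolysis genes were called in both directions with IFNγ, but most lay below 0. In replicates 1–3, 13 of the 18 were below 0 with 65–79*SE and 15 with 65–79*PE, and 12 with 65–79*PE in replicates 4–6. With 65–79*SE in replicates 1–3, 2 of 18 were called higher and 1 lower, where 11% and 10.2% of the 16845 genes tested were, and the median log2 fold change of the 18 was -0.16 beside -0.04 over all genes tested. With 65–79*PE, 1 was called higher and 6 lower in replicates 1–3 (8.38% and 10.1% of all genes), at a median of -0.34. In replicates 4–6, 2 were higher and 1 lower (6.4% and 4.77% of all genes), at a median of -0.09 beside -0.00093 over all genes tested. None was called in the libraries labelled 65–79*SE, replicates 4–6, against PBS. Without PBS replicate 1, the low library for these genes, the medians in replicates 1–3 were -0.34 with 65–79*SE and -0.49 with 65–79*PE. The median over all genes tested was then -0.02 in both. A gene was called at an adjusted p under 0.05 and a fold over 1.5.

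Hk3, a hexokinase of myeloid cells that phosphorylates glucose, was the glycolysis gene with the largest rise. For replicates 1–3 it was at 393, 431 and 395 CPM in PBS, at 806, 822 and 817 CPM with 65–79*SE, and at 897, 865 and 894 CPM with 65–79*PE. Every peptide library was above every PBS library. It was 2.0-fold higher with 65–79*SE (log2 fold change 1.00, SE 0.07, edgeR adjusted p = 4.295e-10) and 2.18-fold higher with 65–79*PE (1.12, SE 0.07, adjusted p = 1.193e-10). The difference between the peptides in these replicates was -0.12 with a 95% interval of -0.26 to 0.02. For replicates 4–6 Hk3 was at 327, 319 and 377 CPM in PBS, at 661, 673 and 634 CPM with 65–79*PE (1.93-fold higher, edgeR adjusted p = 1.891e-09), and at 328, 341 and 304 CPM in the libraries labelled 65–79*SE, which overlapped PBS.

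Slc2a1 encodes GLUT1, the main glucose carrier of macrophages. In replicates 1–3 it was at 85.01, 172 and 199 CPM in PBS, at 273, 255 and 276 CPM with 65–79*SE, and at 173, 179 and 173 CPM with 65–79*PE. The 65–79*SE libraries lay above all others. The rise over PBS was 1.76-fold (log2 fold change 0.82, SE 0.20, edgeR adjusted p = 0.002898), and the difference from 65–79*PE was 1.53-fold (0.62, SE 0.20, adjusted p = 0.0416). That difference was not called when replicate 2, 3 or 5 of every group was left out (adjusted p of 0.1124, 0.1734 and 0.07723). Without PBS replicate 1, the low library, the rise over PBS was 0.53 on the log2 scale and fell short of the fold minimum. In replicates 4–6 it was at 118, 156 and 183 CPM in PBS, at 114, 82.5 and 81.9 CPM in the libraries labelled 65–79*SE, and at 167, 169.9 and 179 CPM with 65–79*PE. Those labelled 65–79*SE were below the other groups, 1.86-fold lower than 65–79*PE (-0.89, SE 0.21, edgeR adjusted p = 0.002431).

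Ldha, which reduces pyruvate to lactate, was lower with both peptides in replicates 1–3 and with 65–79*PE in replicates 4–6. Among replicates 1–3 it was at 1133, 1784 and 1717 CPM in PBS, at 1021, 971 and 1023 CPM with 65–79*SE, and at 741, 752 and 787 CPM with 65–79*PE. Among replicates 4–6 it was at 846, 988 and 800.5 CPM in PBS and at 560.1, 529.7 and 519.8 CPM with 65–79*PE. No 65–79*PE library reached a PBS library in either set, with falls of 2.03-fold (log2 fold change -1.02, SE 0.17, edgeR adjusted p = 5.718e-05) and 1.64-fold (-0.71, SE 0.17, adjusted p = 0.00311). The libraries labelled 65–79*SE, replicates 4–6, were at 1065, 601 and 655 CPM and overlapped PBS. With 65–79*SE in replicates 1–3 the fall was 1.54-fold (-0.62, SE 0.17, adjusted p = 0.004719), and it was not called without replicate 2 (-0.48, adjusted p = 0.09538) or without replicate 3 (-0.55, adjusted p = 0.05923).

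The other glycolysis calls against PBS were with 65–79*PE. For replicates 1–3 the enzymes Pgam1 (log2 fold change -0.80), Pgk1 (-0.75) and Tpi1 (-0.66), which act on the triose intermediates and their products, and the phosphofructokinase Pfkl (-0.85) and Pfkfb3 (-0.60) were lower. Libraries overlapped PBS for Pfkl, Pfkfb3 and Tpi1, and each of the 3 lost its call without replicate 2. For replicates 4–6 Pfkfb3 was instead 1.61-fold higher (0.69, SE 0.23, edgeR adjusted p = 0.03034), at 27.2, 28.4 and 27.1 CPM beside 15.8, 20.1 and 15.9 CPM in PBS. This call was lost without replicate 4, 5 or 6 of every group (adjusted p of 0.1287, 0.07874 and 0.125), and the call in replicates 1–3 when each of replicates 2 to 6 was left out in turn. The change of Pfkfb3 differed between the sets of replicates by -1.29 (SE 0.32, adjusted p = 0.0145). Slc16a3, the lactate exporter MCT4, was called only between the groups of replicates 4–6, 1.73-fold lower in the libraries labelled 65–79*SE than with 65–79*PE (edgeR adjusted p = 0.01043). That call was lost without replicate 5 or 6 of every group (edgeR adjusted p of 0.1097 and 0.1223).

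No call against PBS was made for Hk1, Hk2, Gpi1, Pfkp, Aldoa, Gapdh, Eno1, Pkm, Slc16a1 and Slc16a3 with either peptide and IFNγ. Of these, Hk2, the inducible hexokinase, passed the adjusted p alone in opposite directions with 65–79*PE, at -0.32 in replicates 1–3 and 0.35 in replicates 4–6 on the log2 scale. That difference between the sets was -0.67 (SE 0.13, edgeR adjusted p = 0.003243).

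In some groups the glycolysis genes were low or high together in 1 library. PBS replicate 1 of the IFNγ table had the lowest level of its 3 libraries for 17 of the 18 genes, with a mean log2 CPM of 8.40 beside 8.997 in each of the other two. In the same group the TCA cycle genes were at 6.97, 6.92 and 6.95. The median ratio of the highest to the lowest library was 1.51 for glycolysis and 1.08 for the TCA cycle in that group, beside 1.15 for all genes of at least 10 CPM. In other groups glycolysis spread less than all genes, as with 65–79*SE (1.05 beside 1.09) and 65–79*PE (1.06 beside 1.11) in replicates 1–3 of the IFNγ table. In the libraries labelled 65–79*SE, replicates 4–6, replicate 4 was the highest for 15 of the 18 genes (8.53 beside 8.08 and 8.07). PBS replicate 3 of the Il-4 table was lowest for 17 of 18 genes (8.34 beside 8.92 and 8.74), and PBS replicate 6 for 14 of 18 (8.08 beside 8.63 and 8.59). The part of this spread in the calls was tested by leaving each of these libraries out, and the values with Il-4 stand beside its calls. Without PBS replicate 1 of the IFNγ table, 12 members were called with 65–79*SE in replicates 1–3 in place of 8, and 11 with 65–79*PE, as before. Without the IFNγ library labelled 65–79*SE replicate 4, 8 members were called between the peptides in replicates 4–6 in place of 7, and 2 against PBS in place of 1. The plot of mean levels by library shows the 2 groups of genes side by side.

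**Figure D2:**
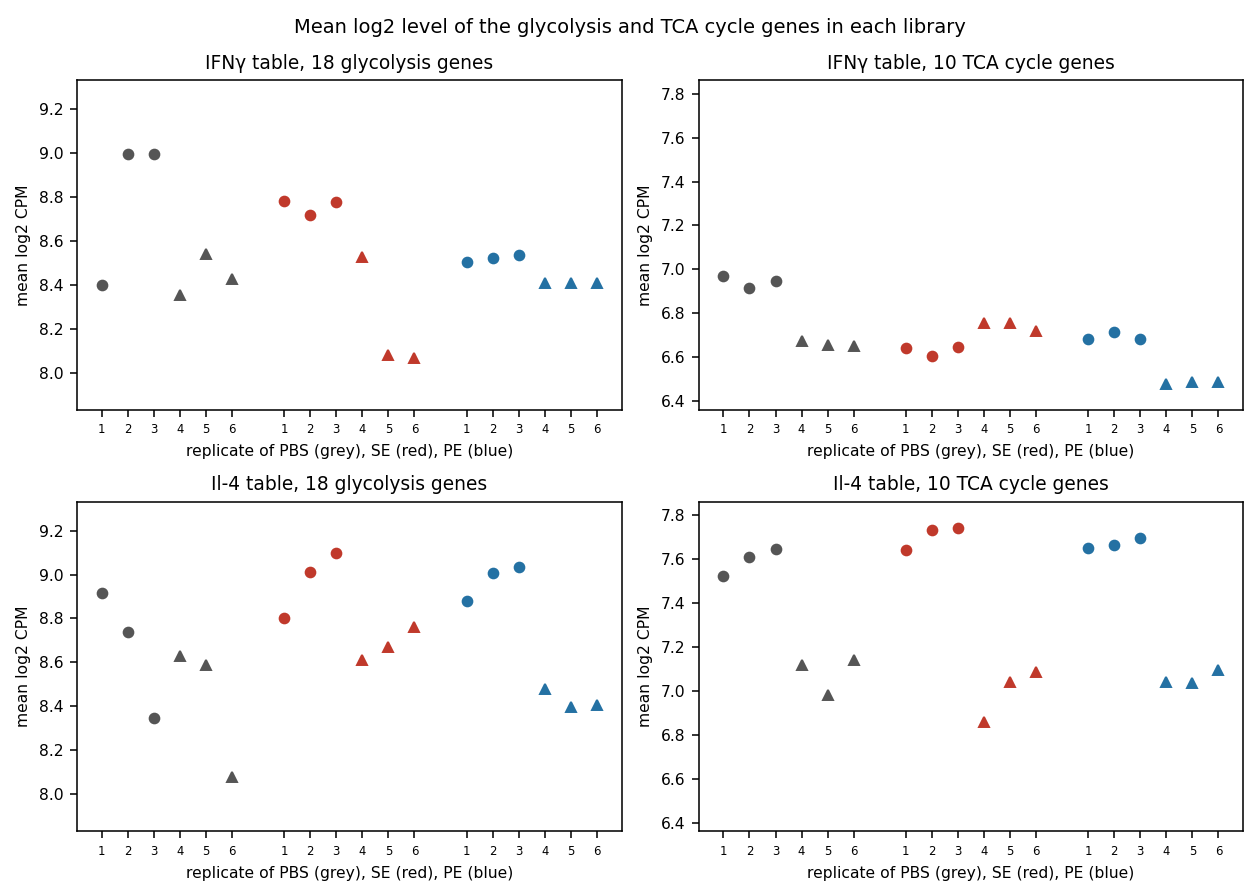
Mean log2 CPM (y axis) of the 18 glycolysis genes (left) and the 10 TCA cycle genes (right) in each library (x axis, replicate number) of the IFNγ table (top) and Il-4 table (bottom), with circles for replicates 1–3 and triangles for replicates 4–6. PBS replicate 1 of the IFNγ table and PBS replicates 3 and 6 of the Il-4 table sit low for glycolysis, at 8.40, 8.34 and 8.08, and not for the TCA cycle.

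Among genes at the entry of pyruvate, Pdk1, a kinase that switches off pyruvate dehydrogenase, was lower in replicates 1–3. It was at 35.01, 51.6 and 61.5 CPM in PBS, at 24.8, 25.03 and 26.4 CPM with 65–79*SE, and at 22.2, 23.8 and 22.4 CPM with 65–79*PE. The falls were 1.94-fold (log2 fold change -0.96, SE 0.20, edgeR adjusted p = 0.0007088) and 2.16-fold (-1.11, SE 0.21, adjusted p = 0.0002065), and no peptide library reached PBS. In replicates 4–6 it was at 57.1, 74.05 and 49.8 CPM in PBS, at 73.6, 37.1 and 44.9 CPM in the libraries labelled 65–79*SE, and at 49.2, 39.04 and 42.2 CPM with 65–79*PE (-0.47, adjusted p = 0.09466). Pdha1, the catalytic subunit of pyruvate dehydrogenase, was at 86.6 to 92.8 CPM in PBS, 74.0 to 77.4 CPM with 65–79*SE and 72.8 to 82.3 CPM with 65–79*PE in replicates 1–3. Its peptide libraries lay below PBS, by less than the fold minimum (-0.24, edgeR adjusted p = 0.003213, and -0.21, adjusted p = 0.007272). Pdha1 was at 92.4 to 102 CPM in all groups of replicates 4–6, which overlapped.

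Hif1a encodes the oxygen-regulated transcription factor that acts on many glycolysis genes. In replicates 1–3 it was at 40.6, 31.6 and 31.1 CPM in PBS, at 50.2, 42.6 and 54 CPM with 65–79*SE, and at 30.5, 42 and 25.6 CPM with 65–79*PE. The 65–79*SE libraries lay above all others, but the changes were under the fold minimum (0.51 against PBS, edgeR adjusted p = 0.007079, and 0.58 against 65–79*PE, adjusted p = 0.007393). With the replicate number as a block the difference from 65–79*PE was 0.59 and passed it (adjusted p = 0.01171). Among replicates 4–6 the level was higher in every group, at 145, 156 and 178 CPM in PBS, 139, 122 and 147 CPM in the libraries labelled 65–79*SE, and 184, 161 and 165 CPM with 65–79*PE. No contrast of Hif1a in those replicates passed the adjusted p. RNA levels of Hif1a do not measure its protein, which is set largely by degradation.

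Within the TCA cycle, Idh2 stood out. Idh2 makes NADPH from isocitrate in mitochondria. In the IFNγ table it was at 129, 134 and 135 CPM in PBS, at 58, 60.7 and 61.7 CPM with 65–79*SE, and at 79.3, 83.6 and 82.3 CPM with 65–79*PE among replicates 1–3. For replicates 4–6 it was at 123, 121 and 113 CPM in PBS, at 129, 129 and 125 CPM in the libraries labelled 65–79*SE, and at 67.4, 68.5 and 67.4 CPM with 65–79*PE. Each group with an IFNγ response lay wholly below its PBS libraries.

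The fall of Idh2 was 2.21-fold with 65–79*SE in replicates 1–3 (log2 fold change -1.14, SE 0.06, edgeR adjusted p = 2.353e-12). With 65–79*PE it was 1.62-fold in replicates 1–3 (-0.70, SE 0.06, adjusted p = 5.921e-09) and 1.76-fold in replicates 4–6 (-0.81, SE 0.06, adjusted p = 8.183e-10). The difference between the sets for 65–79*PE was 0.11 and not called. Between the peptides in replicates 1–3, Idh2 was lower with 65–79*SE by less than the fold minimum (-0.44, SE 0.06, adjusted p = 1.638e-05).

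The other 9 TCA cycle genes had no call in any IFNγ contrast within a set of replicates, although Fh1 differed between sets (below). Their changes were small but tight: 7 of the 10 TCA cycle genes with 65–79*SE and 6 with 65–79*PE in replicates 1–3 passed the adjusted p alone, all lower, and 3 with 65–79*PE in replicates 4–6, where 43%, 40.8% and 25.8% of all genes passed in either direction. The median log2 fold change of the 10 was -0.23, -0.27 and -0.13 in these contrasts. Fh1 (fumarase) was at -0.55, -0.31 and -0.21, and Sucla2, a subunit of succinyl-CoA synthetase, at -0.22, -0.28 and -0.22. Suclg1, the subunit it pairs with, was at -0.47 with 65–79*SE but between 85.4 and 91.9 CPM in all 6 PBS and 65–79*PE libraries of replicates 1–3, beside 63.3 to 64.4 CPM with 65–79*SE. Idh3a, the catalytic subunit of the NAD-dependent isocitrate dehydrogenase, was at -0.41 and -0.47 in replicates 1–3, and Dlst at -0.24 and -0.41. Among Cs, Idh3b, Ogdh and Mdh2, the value farthest from 0 in these 3 contrasts was -0.26, for Ogdh with 65–79*PE in replicates 1–3. In the libraries labelled 65–79*SE, replicates 4–6, no TCA cycle gene passed even the adjusted p against PBS.

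Idh1 had a larger log2 fall than each of the TCA cycle genes in replicates 1–3 with either peptide. This enzyme, which makes NADPH from isocitrate in the cytosol, was at 149, 139 and 126 CPM in PBS, at 35.1, 35.7 and 40.2 CPM with 65–79*SE, and at 45.3, 49.9 and 46.7 CPM with 65–79*PE among replicates 1–3. No peptide library reached PBS. The falls were 3.73-fold (log2 fold change -1.90, SE 0.09, edgeR adjusted p = 1.127e-12) and 2.92-fold (-1.54, SE 0.09, adjusted p = 3.536e-11). In replicates 4–6 it was at 135, 139 and 111 CPM in PBS, at 182, 163 and 164 CPM in the libraries labelled 65–79*SE, and at 90.8, 95.5 and 90.9 CPM with 65–79*PE. The 65–79*PE fall there was under the fold minimum (-0.47, SE 0.09, adjusted p = 0.0003035), and it differed from that of replicates 1–3 by -1.07 (SE 0.12, adjusted p = 3.957e-05).

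Mdh1, which interconverts malate and oxaloacetate in the cytosol, was at 419, 404 and 399 CPM in PBS, at 214, 225 and 228 CPM with 65–79*SE, and at 319.7, 344 and 358 CPM with 65–79*PE among replicates 1–3. The 3 groups did not overlap, with 65–79*SE 1.83-fold lower than PBS (log2 fold change -0.87, SE 0.07, edgeR adjusted p = 3.088e-09) and 1.53-fold lower than 65–79*PE (-0.62, SE 0.07, adjusted p = 3.914e-06). Among replicates 4–6 it was at 281, 297 and 304 CPM in PBS, at 298, 300.3 and 298 CPM in the libraries labelled 65–79*SE and at 204, 247 and 219.6 CPM with 65–79*PE. The 65–79*PE libraries were below both other groups, by less than the fold minimum against PBS (-0.39, SE 0.07, adjusted p = 0.0001872).

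Counted over all 34 members with IFNγ, 3 were called higher and 5 lower with 65–79*SE in replicates 1–3, beside 11% and 10.2% of all genes. With 65–79*PE, 2 were higher and 9 lower in replicates 1–3 (8.38% and 10.1% of all genes) and 3 higher and 2 lower in replicates 4–6 (6.4% and 4.77%). The libraries labelled 65–79*SE, replicates 4–6, had 0 higher and 1 lower against PBS (0.873% and 1.16%). The 9 lower with 65–79*PE in replicates 1–3 include the 6 glycolysis genes above, and no difference between the shares of members and of all genes was tested. By the adjusted p alone, 22 and 23 of the 34 members passed in replicates 1–3 with 65–79*SE and 65–79*PE (43% and 40.8% of all genes), and 2 and 12 in replicates 4–6 (4.53% and 25.8%).

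With 65–79*PE, the members called in the same direction in both sets were Acod1 and Hk3 (higher) and Ldha and Idh2 (lower), and Pfkfb3 was called in opposite directions. For 65–79*SE no call in replicates 1–3 was made in the same direction in the libraries labelled 65–79*SE, replicates 4–6, which lack the IFNγ response, and Acod1 was called in opposite directions. The difference between the sets was itself called for 10 members with the label 65–79*SE (22.8% of all genes) and for 4 with 65–79*PE (5.74%), namely Hk2, Pfkfb3, Idh1 and Acod1. The 10 were Slc2a1, Hk3, Pfkp, Pdk1, Hif1a, Fh1, Idh2, Idh1, Mdh1 and Acod1. The plot of changes of all members shows the columns side by side.

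**Figure D3:**
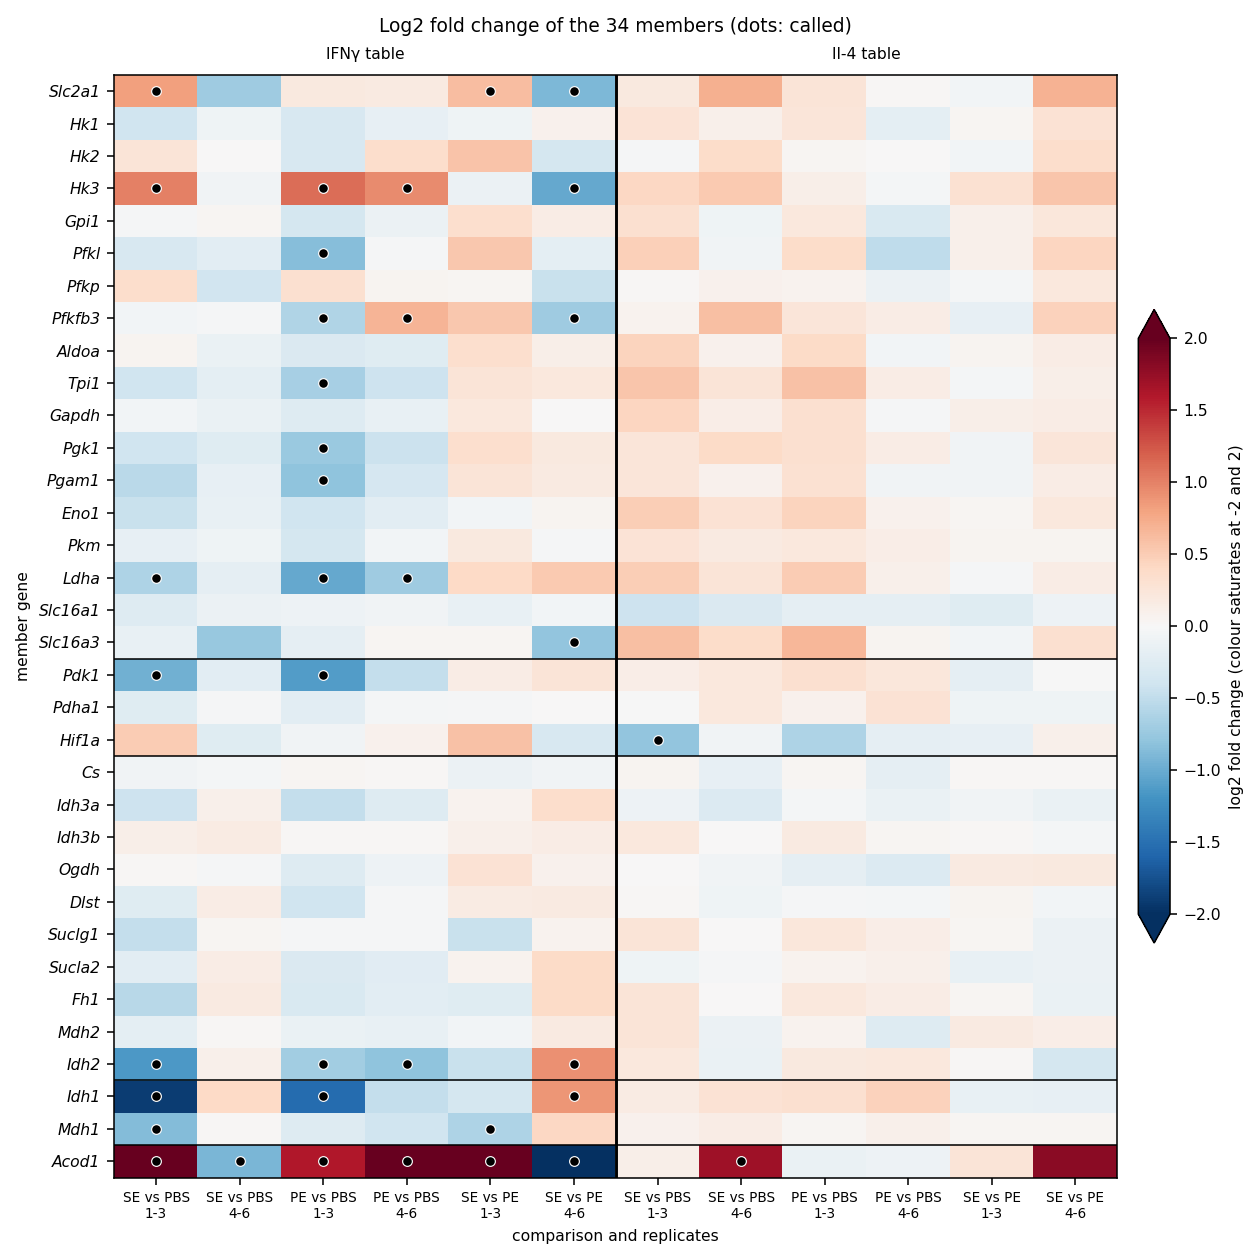
Log2 fold change (colour, saturating at -2 and 2) of the 34 members (rows) in each contrast and set of replicates (columns) of the IFNγ table (left) and Il-4 table (right), with a dot where the change was called. Dots are dense against PBS in replicates 1–3 with IFNγ (8 for 65–79*SE, 11 for 65–79*PE), and there are 2 in the Il-4 columns.

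Direct comparison of the peptides with IFNγ gave 3 called members in replicates 1–3. Acod1 and Slc2a1 were higher and Mdh1 lower with 65–79*SE (4.1% of all genes were higher and 1.23% lower), and 11 passed the adjusted p alone (18% of all genes). The 95% interval lay within 1.5-fold in both directions for 22 of the 34 members, so a difference of that size was not seen for those. It reached past 1.5-fold for the other 12, including Hk2 (0.58 higher), Hif1a and Ldha. For replicates 4–6, where the libraries labelled 65–79*SE lack the IFNγ response, 7 members were called: Idh1 and Idh2 higher, and Acod1, Hk3, Slc2a1, Pfkfb3 and Slc16a3 lower (5.76% and 8.1% of all genes, with 15 members and 31.9% of all genes by the adjusted p alone). The calls of Pfkfb3 and Slc16a3 were each lost without replicate 5 or 6 of every group. Idh1 was 1.84-fold higher (log2 fold change 0.88, SE 0.09, edgeR adjusted p = 1.479e-07) and Idh2 1.88-fold higher (0.91, SE 0.06, adjusted p = 1.231e-10). The difference between the sets was called for 10 members (16.6% of all genes), and Acod1 and Slc2a1 were called in opposite directions.

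With Il-4 few members were called by edgeR without the replicate block. With 65–79*SE in replicates 1–3, 0 members were higher and 1 lower, where 1.97% and 4.2% of the 14183 genes tested were. The 95% interval lay within 1.5-fold for 16 of the 34 members and reached past it for 18. Leaving out a replicate of every group gave 0 to 8 calls in this contrast. The 8, without replicate 1, were Hif1a and 7 glycolysis genes, all 7 higher (Pfkl, Aldoa, Tpi1, Gapdh, Eno1, Ldha and Slc16a3, at 0.67 to 1.01 on the log2 scale). Calls over all genes also rose without replicate 1, from 875 to 1646. Hif1a was at 43.1, 44.6 and 48.7 CPM in PBS, at 38.9, 19.1 and 20.8 CPM with 65–79*SE and at 37.4, 26.2 and 25 CPM with 65–79*PE. All peptide libraries were below PBS, and replicate 1 of each peptide was nearest to it. The fall with 65–79*SE was 1.73-fold (log2 fold change -0.79, SE 0.24, edgeR adjusted p = 0.03332), and with 65–79*PE the value was -0.62 (SE 0.23, adjusted p = 0.1146). With the replicate number as a block the 65–79*PE value was -0.67 and called (adjusted p = 0.01495). Without PBS replicate 3 the 65–79*SE fall was -0.74 and not called (adjusted p = 0.1149), and leaving out replicate 2, 3 or 5 of every group also ended the call. In replicates 4–6 Hif1a was at 202, 196 and 166 CPM in PBS, 231, 162 and 146 CPM with 65–79*SE and 196, 165 and 138 CPM with 65–79*PE, which overlapped. The 65–79*SE change of Hif1a differed between the sets by -0.72 (adjusted p = 0.1842), and under the block by -0.77 (adjusted p = 0.03093).

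Acod1 was called in replicates 4–6 with 65–79*SE and Il-4, on the level of 1 library. It was at 13.2, 11.3 and 12.1 CPM in PBS, at 81.9, 16.3 and 20.2 CPM with 65–79*SE, and at 11.5, 10.1 and 12.5 CPM with 65–79*PE. All 65–79*SE libraries lay above the rest, replicate 4 by far. The rise was 3.23-fold (log2 fold change 1.69, SE 0.45, edgeR adjusted p = 0.04587), with 1.23% of all genes called higher and 0.973% lower in this contrast. Without 65–79*SE replicate 4 it was 0.59 and not called (adjusted p = 0.4031). It was also not called without PBS replicate 3 (1.69, adjusted p = 0.05985), without PBS replicate 6 (1.68, adjusted p = 0.09916), or when replicate 2, 3, 4 or 5 of every group was left out. Among replicates 1–3 Acod1 overlapped between groups, at 24.8, 33.9 and 25.7 CPM in PBS, 16.9, 40.8 and 34.1 CPM with 65–79*SE, and 19.9, 29.5 and 27.8 CPM with 65–79*PE.

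**Figure D4:**
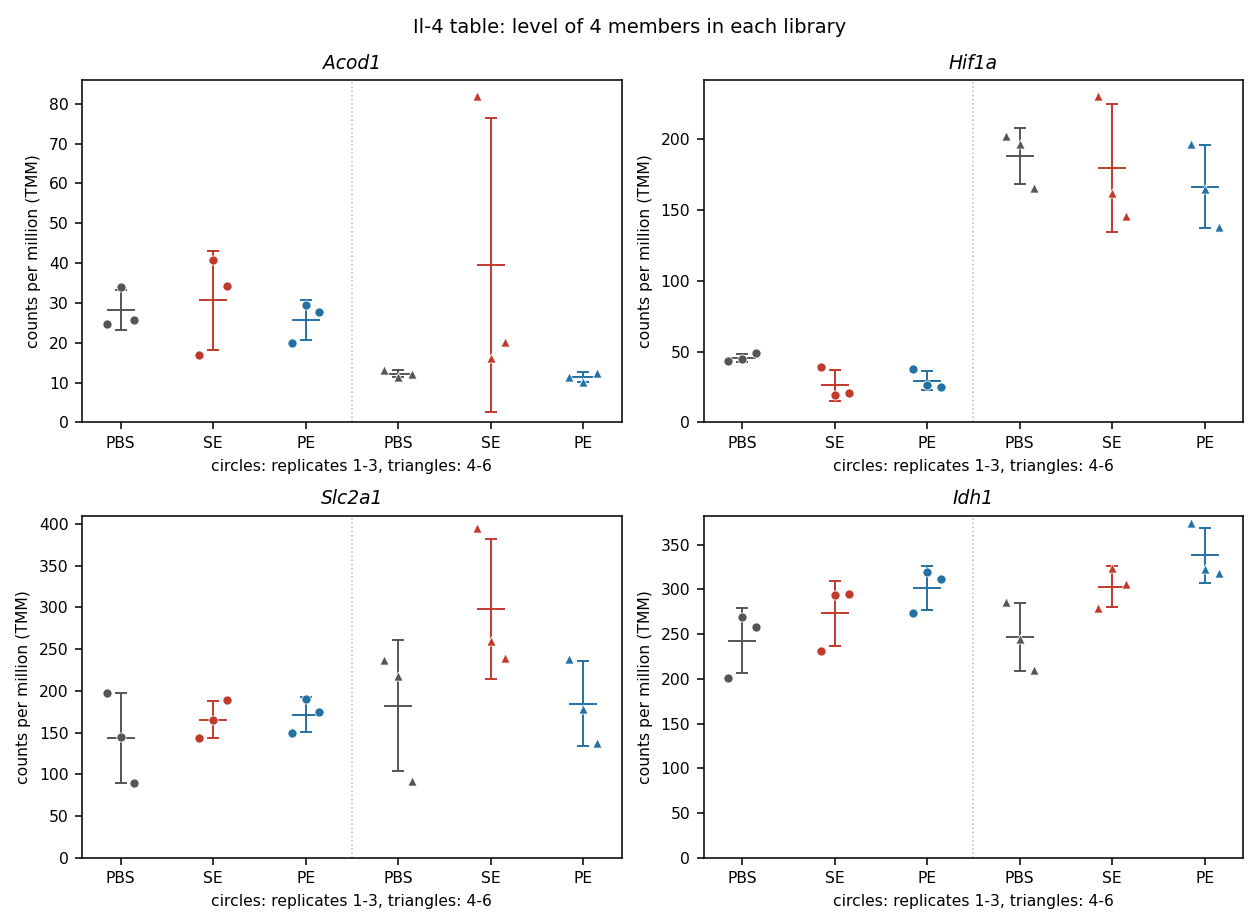
CPM (y axis) of Acod1, Hif1a, Slc2a1 and Idh1 in the 18 libraries of the Il-4 table by group (x axis); points are libraries, bars the mean and SD of 3. Replicate 4 of 65–79*SE stands apart for Acod1 at 81.9 CPM, and Hif1a is at 48.7 CPM or less in replicates 1–3 and at 138 CPM or more in replicates 4–6.

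With 65–79*PE and Il-4, 0 of 34 members were called in either set by edgeR without the block. Of all genes, 1.52% were higher and 1.95% lower in replicates 1–3, and 1.26% and 2.32% in replicates 4–6. The replicate block raised the calls over all genes from 492 to 761 in replicates 1–3, where it called Hif1a. In replicates 4–6 it raised them from 508 to 780 and called 0 members. Without the block, 8 and 3 members had an unadjusted edgeR p under 0.05, beside 3281 and 2862 of the 14183 genes tested. DESeq2 called 0 members in both sets, beside 601 and 626 of all genes. Between the peptides, edgeR called 0 members and 0 of all genes (0%) in both sets. Unadjusted, 2 and 5 members had an edgeR p under 0.05, beside 571 and 1321 of all genes. DESeq2 called 0 members in both and 0 and 47 of all genes. The 95% interval lay within 1.5-fold for 25 members in replicates 1–3 and for 21 in replicates 4–6. Slc2a1 in replicates 4–6 was at 237, 218 and 92.1 CPM in PBS, at 395, 260.1 and 239 CPM with 65–79*SE and at 238, 179 and 137 CPM with 65–79*PE, with every 65–79*SE library above the others. Its rise over PBS was 0.71 (adjusted p = 0.203), and 0.77 under the replicate block, where it was called (adjusted p = 0.04475). It had the largest difference between the peptides after Acod1 in replicates 4–6, at 0.69 (95% interval 0.04 to 1.34). Without the block, no difference between the sets was called for a member in any Il-4 contrast, where 3.91%, 0.00705% and 0% of all genes were called for 65–79*SE against PBS, 65–79*PE against PBS and the peptides.

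Apart from the Acod1 rise just given, no member called against PBS with IFNγ was called with Il-4 by edgeR without the block on all libraries. Slc2a1 was called under the block, as given above. Without replicate 1 of every group, Pfkl, Tpi1 and Ldha were called higher with 65–79*SE and Il-4 in replicates 1–3 (0.85, 0.89 and 0.80). These 3 were called lower with 65–79*PE and IFNγ in replicates 1–3. Idh1 in the Il-4 table was at 201, 269 and 258 CPM in PBS, 231, 294 and 295 CPM with 65–79*SE and 273, 319 and 312 CPM with 65–79*PE in replicates 1–3, where no change was called (0.17 and 0.31 on the log2 scale). Among replicates 4–6 it was at 286, 244 and 210 CPM, 279, 324 and 307 CPM, and 374, 323 and 318 CPM, with 65–79*PE at 0.46 (SE 0.14, edgeR adjusted p = 0.0609). Hk3 was above PBS in every 65–79*SE library of both sets (0.42 and 0.52) without passing the adjusted p (0.05752 and 0.05399). The glycolysis genes had a median log2 fold change of 0.29 with 65–79*SE and 0.28 with 65–79*PE in replicates 1–3, beside -0.07 over all genes in both, with 0 of 18 called in each. Without PBS replicate 3, the low library of that set for these genes, the medians were 0.21 and 0.14. In replicates 4–6 the medians were 0.22 with 65–79*SE and -0.00095 with 65–79*PE, where 9 of the 18 genes were below 0, and without PBS replicate 6 they were 0.05 and -0.14. Whether the changes differ between the cytokines was not tested, as the tables were counted separately.

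Another 63 genes of these pathways, from a list chosen with earlier results of these data known, were counted in the same fits. They are isoenzymes of glycolysis, further subunits of pyruvate dehydrogenase and the cycle, enzymes around the cycle, the pentose phosphate pathway and HIF regulators, and 57 passed the filter on low counts with IFNγ and 58 with Il-4. With IFNγ, 4 were higher and 10 lower with 65–79*SE in replicates 1–3 (11% and 10.2% of all genes), and 0 were called in the libraries labelled 65–79*SE, replicates 4–6 (0.873% and 1.16%). With 65–79*PE, 0 were higher and 13 lower in replicates 1–3 (8.38% and 10.1% of all genes), and 0 higher and 5 lower in replicates 4–6 (6.4% and 4.77%). The 4 called lower in both sets were Aldoc, Eno2, the monocarboxylate carrier Slc16a7 and the pyruvate dehydrogenase kinase Pdk2. Aldoc, the brain-type aldolase, was at 110.7 ± 19.0 CPM in PBS and 30.9 ± 2.81 CPM with 65–79*PE among replicates 1–3, beside 74.2 ± 14.3 and 32.1 ± 2.81 CPM for replicates 4–6. These were falls of 3.59-fold (edgeR adjusted p = 2.305e-08) and 2.31-fold (adjusted p = 8.966e-06). Eno2, the neuronal enolase, fell 2.46-fold (adjusted p = 0.000647) and 3.04-fold (adjusted p = 0.0002974). Between the peptides with IFNγ, 4 of the 57 were higher and 0 lower with 65–79*SE in replicates 1–3 (4.1% and 1.23% of all genes). In the libraries labelled 65–79*SE, replicates 4–6, 7 were higher and 0 lower than with 65–79*PE (5.76% and 8.1% of all genes). In replicates 1–3 Eno2 was 1.80-fold higher with 65–79*SE than with 65–79*PE (adjusted p = 0.03433). It was also 1.94-fold higher than with 65–79*PE in the libraries labelled 65–79*SE, replicates 4–6 (adjusted p = 0.01958), which lack the IFNγ response.

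No gene of the pentose phosphate pathway was called in any IFNγ contrast. The further subunits of the cycle (Idh3g, Suclg2 and the succinate dehydrogenase genes) had 2 of 6 called lower with either peptide in replicates 1–3 (10.2% and 10.1% of all genes), and a median of -0.56 with 65–79*SE and -0.46 with 65–79*PE. In replicates 4–6, 0 of 6 were called with 65–79*PE (6.4% of all genes higher and 4.77% lower), at a median of -0.22. The libraries labelled 65–79*SE, replicates 4–6, had 0 called against PBS (0.873% and 1.16%), at a median of 0.17. With Il-4, 2 of the 58 were called with 65–79*SE in replicates 1–3, 1 higher and 1 lower (1.97% and 4.2% of all genes), and 0 in the other contrasts of each set.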

How the data were processed

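RNA-seq of 36 libraries gave 2 tables of raw counts per gene as deposited, which the authors made with featureCounts from uniquely aligned single-end reads of a stranded library kit on GRCm38.p5 with GENCODE annotation. The aligner and the strand setting are not given in the sources used here, and the submitters' notes also name DESeq2 1.16.1 and R 3.4.1. Groups and replicate numbers came from the labels. Each table was tested on its own by edgeR 4.0.16 (R 4.3.3) with the quasi-likelihood test, TMM scaling, the edgeR filter on low counts and a mean for each group and label set (replicates 1–3 or 4–6), over 18 libraries. Contrasts were made within a set, and the difference between sets was tested in the same fit. A call needed a Benjamini-Hochberg adjusted p under 0.05 over all genes tested and a fold over 1.5. Contrasts against PBS share their PBS libraries.

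The members, the companion genes, the motifs and the tests were chosen with earlier results of these data known. All members are accounted for. From the companion list and the IFNγ response list, 1 gene each is not reported here and enters no count or sum. Values in each library are given for Acod1, Hif1a and up to 2 called members with the largest rise and fall in each contrast, and for Pdk1, Slc2a1, Mdh1 and Pfkfb3 where they are described. The fit was tested on simulated data. Alternatives were other scalings and filters, DESeq2 1.42.0, a replicate block, pooled label sets, each set alone and leaving out libraries. Total counts ran from 17.05 to 63.16 M, so a count of 0, taken as up to 3 counts, would allow between 0.0475 and 0.176 CPM. This limit covers counting error only.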

Additional observations from a re-analysis of the deposited data

Results flagged for a closer look

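Of 216 sets of 6 libraries (34 members and 2 mean levels in 6 groups), 8 held a library whose gap to its neighbour, as a share of the range, passed Dixon's 95% critical value. Chance gives about 1 in 20 for samples of 1 source, but each set here joins replicates 1–3 and 4–6, whose levels differ for some members, so that rate does not apply here. In the IFNγ table these were Hk2 in PBS replicate 1 (66.972 CPM), Idh3a in PBS replicate 1 (70.137 CPM), Pkm in the library labelled 65–79*SE replicate 4 (4911.9 CPM), and Pfkl in 65–79*PE replicate 3 (91.382 CPM) and Pfkp in 65–79*PE replicate 4 (275.25 CPM). In the Il-4 table these were Hk2 in PBS replicate 6 (66.434 CPM), Sucla2 in PBS replicate 4 (98.048 CPM) and Acod1 in 65–79*SE replicate 4 (81.924 CPM).

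With IFNγ, the log2 fold change differed between the sets of replicates by edgeR's test of the difference, given here as replicates 1–3 minus 4–6. For 65–79*SE against PBS the differences were 4.76 for Acod1, 1.53 for Slc2a1, 1.07 for Hk3, 0.74 for Pfkp and 0.74 for Hif1a. They were -0.74 for Pdk1, -0.73 for Fh1, -1.24 for Idh2, -2.30 for Idh1 and -0.90 for Mdh1. For 65–79*PE against PBS they were -0.67 for Hk2, -1.29 for Pfkfb3, -1.07 for Idh1 and -0.92 for Acod1. For 65–79*SE against 65–79*PE they were 5.69 for Acod1, 1.51 for Slc2a1, 0.92 for Hk2, 0.90 for Hk3, 1.25 for Pfkfb3 and 0.91 for Hif1a. They were -0.62 for Fh1, -1.36 for Idh2, -1.23 for Idh1 and -1.03 for Mdh1. The libraries labelled 65–79*SE, replicates 4–6, lack the IFNγ response, and its part in these differences was not tested.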

How the results depend on the processing

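Of 594 recalculated values of the 37 called member changes, 528 kept direction and call, 62 kept direction but lost the call and 4 reversed. These values include leaving out replicates of the other set, which removes no library of the contrast and changes only the shared fit. The share that kept the call is therefore not a measure of how stable the calls are. The 4 reversed when label sets were pooled: Acod1 (2.42) and Pfkfb3 (0.0796) against PBS with 65–79*SE, replicates 4–6, and 65–79*PE, replicates 1–3, and Slc2a1 (-0.0667) and Acod1 (0.15) between the peptides in replicates 1–3 and 4–6. Pooling mixes the libraries that lack the IFNγ response with the rest. In IFNγ order (65–79*SE against PBS, 65–79*PE against PBS, then the peptides, replicates 1–3 before 4–6), calls by the adjusted p alone were 22, 2, 23, 12, 11 and 15, and 3 for 65–79*SE with Il-4 in replicates 1–3. With pooled label sets the counts were 1 (65–79*SE) and 7 (65–79*PE) against PBS in replicates 1–3, 0 between the peptides in both sets, and with Il-4 0 and 0 for 65–79*SE.

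For the libraries labelled 65–79*SE with IFNγ, replicates 4–6, the count was 3 with library totals, DESeq2 or no low count filter, and 2 with at least 10 counts in every library or with 9 libraries alone. With Il-4, no low count filter gave 3 and 3 for 65–79*SE, 2 for 65–79*PE in replicates 1–3 and 2 between the peptides in replicates 4–6, and 3, 1 and 2 for the differences between sets. With 9 libraries alone 65–79*SE had 0 and 0. The causes were not tested. Leaving out replicates gave 7 to 12 and 0 to 4 for 65–79*SE, 9 to 11 and 4 to 5 for 65–79*PE and 2 to 4 and 6 to 8 between the peptides with IFNγ, and 9 to 10, 1 to 5 and 9 to 13 for the differences. With Il-4 they gave 0 to 8 and 0 to 2 for 65–79*SE, 0 to 2 and 0 for 65–79*PE, 0 between the peptides, and 0 to 1, 0 and 0 for the differences. Leaving out single libraries (PBS replicates 1, 3 and 6, 65–79*SE replicate 4) was added after seeing the data.

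Same-number deviations correlated above 0.1 in 2 of 9 and 3 of 9 pairs with IFNγ (-0.36 to 0.30) and 8 of 9 and 6 of 9 with Il-4 (-0.13 to 0.73). Not every pair of a table did, so the main test has no block, although most pairs with Il-4 did. Every pair did in 3 of 6 Il-4 contrasts (65–79*SE against PBS and the peptides in replicates 1–3, 65–79*PE against PBS in replicates 4–6), where the replicate block changed no member call. It gave 2 calls for 65–79*SE with Il-4 in replicates 4–6, 1 difference between its sets and 1 call for 65–79*PE in replicates 1–3. Over all genes, the block raised the calls for 65–79*SE with Il-4 from 875 to 1152 in replicates 1–3 and from 313 to 743 in replicates 4–6. The block also raised the called differences between the sets for 65–79*SE with Il-4 from 554 to 1555. With IFNγ it ended the call of Pfkfb3 with 65–79*PE in replicates 1–3 and the difference of Pdk1 between the sets for 65–79*SE, and added Hif1a between the peptides in replicates 1–3.

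Counts over all genes moved over 1.5 times more often. With IFNγ they were 3573 (589 to 3732 over the alternatives) and 343 (70 to 589) for 65–79*SE, and 898 (515 to 1056) and 2336 (515 to 2463) between the peptides, with 967 (485 to 1195) differences between sets for 65–79*PE. With Il-4 they were 875 (105 to 1646) and 313 (60 to 893) for 65–79*SE and 492 (92 to 761) and 508 (113 to 805) for 65–79*PE, with 554 (0 to 1555) and 1 (0 to 154) differences, and 0 between the peptides (up to 19, 301 and, for the difference, 77 without the low count filter).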
